A study of Homo sapiens with 12 samples.

Results

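The 6 control cultures of the series were labelled as neurons and had been grown from reprogrammed (induced pluripotent) IMR-90 cells, a human lung fibroblast line, and given a negative control siRNA (siNC 1 to 6). They were taken by their titles from 12 libraries in all, and the other libraries enter no value here. Total RNA was taken from a bulk lysate of each culture to make a library, and the deposited values are counts per gene symbol. All 6 carry the same line and the same siRNA, no untransfected culture was analysed here, and nothing in the labels says whether the numbers mark separate differentiations or wells, so the spread between libraries may be partly technical. The titles hold the letters NPC, which the labels do not explain, while the labels name the cell type as neuron.

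Stem cells turned toward the neural lineage pass through dividing progenitors that carry SOX2, a transcription factor that holds cells in the progenitor state, and that line up along VIM and NES filaments. Progenitors leave the cell cycle and become young neurons, which switch on microtubule proteins such as DCX, STMN2 and MAP2, and later build synapses. The same progenitors also give rise to astroglia, so that cultures of this kind can hold several stages side by side. A bulk library cannot tell fewer cells of a type from less RNA per cell, nor whether markers of several types sit in the same cells.

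Library totals ran from 90755953 to 120023356 counts (siNC 4 was the lowest), so that 3 counts, the limit a count of 0 allows, are worth 0.0252 to 0.0329 CPM (counts scaled to a common library total); such limits cover counting error only. Mitochondrial transcripts took 4.22% ± 0.113 of counts (SD, n = 6) and protein-coding genes 96.1% ± 0.0364. At 1 CPM or more in all 6 libraries, which is called detected below, were 15897 of 59653 gene symbols, or 26.6%. Among protein-coding symbols it was 66.6%, and counts of detected members in lists of such genes are to be read beside that share. Library siNC 3 stood apart more often than the others. Of 12655 genes with a mean of 5 CPM or more, 556 (4.39%, where the rule used flags about 5% by chance) had 1 library far from the rest, and siNC 3 was that library in 82 of them as the highest and in 184 as the lowest. Levels of different genes are compared below as TPM, which divides counts by exon length before scaling to a common total. The 20 highest genes are also ranked by CPM, which is not divided by length. Values of 1 gene across libraries are compared as CPM scaled by TMM factors.

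Markers of young neurons, progenitors, dividing cells and astroglia were all abundant. DCX, a microtubule-binding protein of migrating young neurons, had 601 CPM in the lowest library, a median of 654 and 714 in the highest (654 ± 42.5, SD, n = 6). MAP2, the dendritic microtubule protein, stood at 1036 ± 107 CPM (902 to 1177), and STMN2, a stathmin of growing axons, at 487 ± 35.9 CPM (451 to 531). The progenitor factor SOX2 had the smallest CV of the 6 markers (SD as a percent of the mean, 3.15%), at 626 ± 19.7 CPM (607 to 660). MKI67, present only in cycling cells, stood at 207 ± 17.2 CPM (178 to 225), with siNC 3 lowest. NTRK2, the receptor of BDNF, found on neurons and in a shorter form on astroglia, stood at 1279 ± 109 CPM (1137 to 1443). Each of these values rested on at least 19934 counts in every library.

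**Figure D1:**
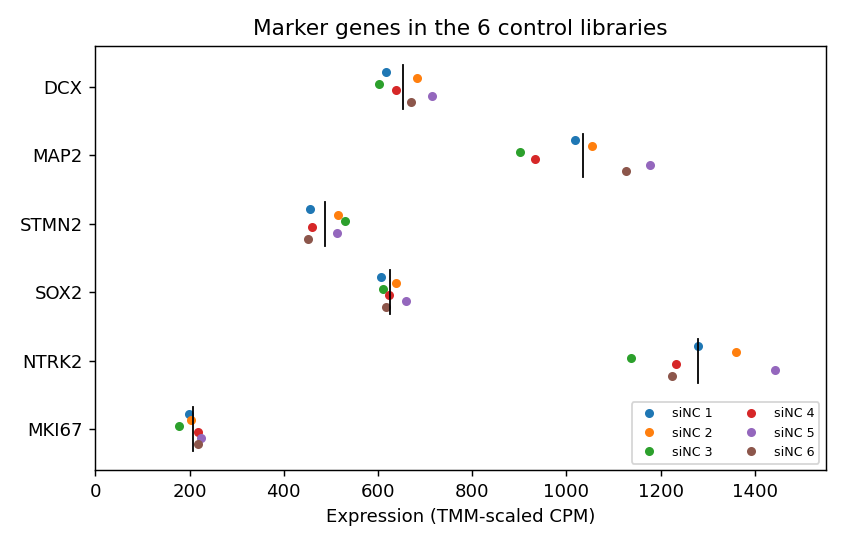
Expression of the 6 marker genes in TMM-scaled CPM on a linear axis from 0; each point is 1 of the 6 siNC libraries and the vertical line is their mean. SOX2 spans 607 to 660 CPM, MKI67 178 to 225 CPM, and NTRK2 has the widest range (1137 to 1443 CPM).

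Per length, SOX2 was higher than DCX and ranked 49 among all genes. SOX2 had 1034 ± 30.0 TPM against 266 ± 16.8 TPM for DCX (SD, n = 6), so SOX2 was 3.89-fold higher, in 6 of 6 libraries. STMN2 had 856 ± 57.7 TPM against 67.1 ± 5.71 TPM for MKI67, a 12.8-fold difference, also in 6 of 6 libraries. The exact sign-flip permutation test over libraries (two-sided) gave p = 0.03125 for each, the smallest that 6 libraries allow, and 0.0347 after adjustment over the 10 gene pairs compared. Genes whose levels differ far beyond their spread are bound to give this value. Here and below the test shows only that the libraries agree, and it covers no error from the lengths used. NTRK2 rose by over 1.5 times with the choice of length: its 261 ± 22 TPM became 466 TPM when the longest annotated transcript replaced the union of all exons.

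The labelled cell type was represented by the whole neuron list, in which 20 of 20 genes were detected, with a median of 210 TPM where the median of 15747 detected genes was 23.6. GAP43, a growth cone protein, was highest at 906 ± 53.7 TPM, followed by STMN2, the axon guidance adaptor DPYSL3 at 753 ± 10.8 TPM and the filament protein INA at 582 ± 33.7 TPM (SD, n = 6). These are proteins of growing neurites. The light and middle neurofilaments NEFL and NEFM stood at 248 ± 5.72 and 135 ± 3.34 TPM, and the heavy chain NEFH, which is added late, at 5.31 ± 0.292 TPM. Of the exon bases of NEFM 38.9% overlap a gene on the other strand, and the strand setting of the counting is not given in the sources used here. RBFOX3, the NeuN antigen of postmitotic neurons, was the lowest of the list at 0.538 ± 0.0618 TPM (1.28 ± 0.149 CPM). TUBB3, often used as the neuronal tubulin, read only 13.4 ± 0.486 TPM, but 35.8% of its exon bases are shared with another annotated gene on the same strand, so its count is uncertain.

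Genes of late neuronal maturation were mostly detected, 20 of 22, but at low levels, with a median over the list of 11.0 TPM. The highest were NRGN, a postsynaptic calmodulin-binding protein, at 71.8 ± 6.97 TPM, the vesicle protein SYP at 71.5 ± 4.2 TPM, the scaffold DLG4 at 69.8 ± 2.57 TPM and SYN1, which tethers synaptic vesicles, at 59.3 ± 5.05 TPM (SD, n = 6). PVALB, a calcium buffer of fast interneurons, had at most 1 count in any library and the potassium channel KCNA1 at most 7. Early members of developmental gene pairs were above late ones. GRIN2B, the NMDA receptor subunit of young neurons, had 21.7 ± 2.60 TPM against 3.52 ± 0.698 TPM for GRIN2A, its later partner (6.2-fold), and the sodium channel SCN3A had 56.3 ± 7.62 TPM against 28.5 ± 3.76 TPM for SCN1A (1.98-fold), each in 6 of 6 libraries (exact permutation p = 0.03125, adjusted 0.0347). The chloride transporters did not follow this: SLC12A2, the importer of young neurons, had 11.2 ± 1.44 TPM and SLC12A5, the exporter of mature ones, 12.7 ± 0.913 TPM. Their log2 ratio was -0.18 ± 0.206 (SD, n = 6), SLC12A2 was higher in 1 of 6 libraries, and the exact permutation test did not call a difference (p = 0.125, adjusted 0.125).

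Progenitor and radial glial genes were detected in 20 of 20 cases, with a median of 148 TPM. VIM, the filament protein of radial glia, led at 2880 ± 107 TPM, followed by SOX2, NES at 842 ± 48.9 TPM and the fatty acid carrier FABP7 at 776 ± 41.9 TPM (SD, n = 6). Genes of cell division were detected in 18 of 18 cases, with a median of 50.9 TPM. Among them were PCNA, the replication clamp, at 256 ± 8.73 TPM, TOP2A, which untangles DNA before mitosis, at 134 ± 9.57 TPM, the thymidylate synthase TYMS at 114 ± 6.38 TPM and the spindle protein TPX2 at 89.3 ± 3.48 TPM. The proneural and intermediate progenitor list was split, with 6 of 12 detected. DLL1, a Notch ligand, stood at 185 ± 9.47 TPM, and DLL3 and INSM1 at 45.9 ± 3.22 and 26.2 ± 2.167 TPM. EOMES, which marks intermediate progenitors of the dorsal cortex, had 1 to 6 counts per library, and NEUROG2 stood at 0.266 ± 0.0826 CPM. The list thus held a high Notch ligand gene beside a cortical intermediate progenitor gene near 0.

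Astrocyte genes were detected in 15 of 16 cases, with a median of 142 TPM. SPARCL1, a secreted matrix protein, was highest at 1262 ± 37.1 TPM, with the gap junction protein GJA1 at 612 ± 51.9, the chaperone CLU at 550 ± 21.7 and the glutamate transporter SLC1A3 at 284 ± 26.9 TPM (SD, n = 6). GFAP, the astrocyte filament, ranged from 491 to 746 CPM, and the water channel AQP4 from 99.5 to 121 CPM. Several of these genes are also made by radial glia, so the list does not tell the 2 types apart. In both glial pairs the early gene was above the late one in 6 of 6 libraries (exact permutation p = 0.03125, adjusted 0.0347): SLC1A3 was 38.8-fold above SLC1A2, the transporter of mature astrocytes, at 7.32 ± 0.806 TPM, and VIM 13.6-fold above GFAP at 213 ± 29.8 TPM. ALDH1L1, a folate enzyme used as a marker of mature astrocytes, stood at 0.675 ± 0.0551 TPM and GJB6 at no more than 9 counts per library.

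**Figure D2:**
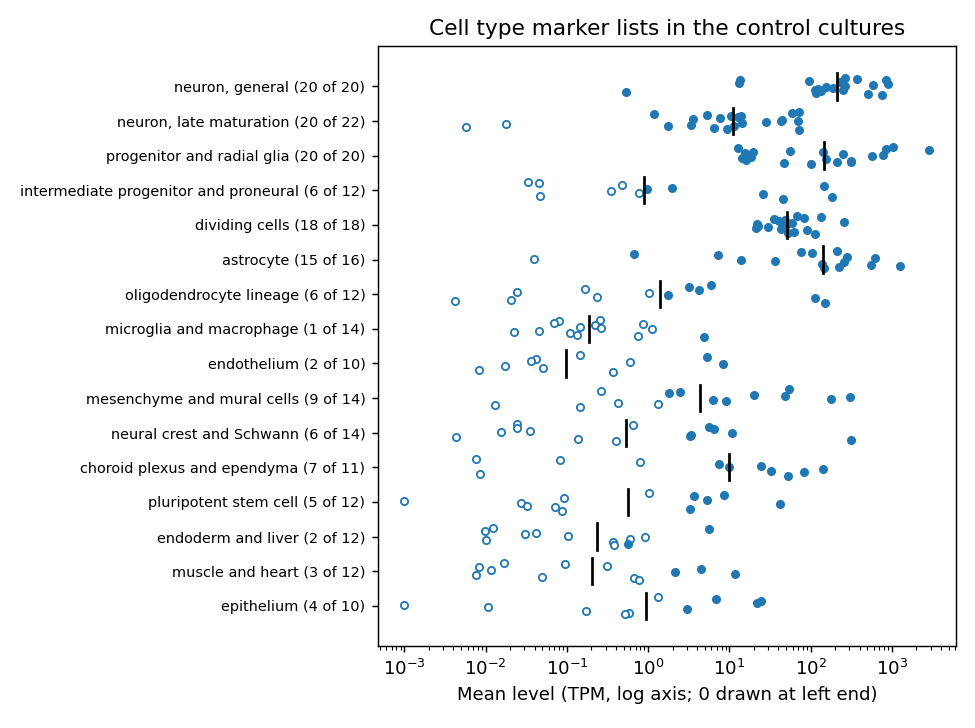
Mean TPM over the 6 siNC libraries for each member of 16 cell type lists, on a log axis; filled points were detected (1 CPM or more in all 6 libraries), open points were not, the black bar is the median of the list and the numbers in brackets count detected members. Neuron, progenitor, dividing-cell and astrocyte lists sit at the right, with medians of 210, 148, 50.9 and 142 TPM, and the microglia and endothelium lists at the left, with medians of 0.185 and 0.0978 TPM.

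Lists of other lineages were detected in part, from 7.14% of the microglia list to 64.3% of the mesenchyme list, beside 66.6% of protein-coding symbols. A share near 66.6%, as for the mesenchyme list, does not set a lineage apart. Of 14 microglia and macrophage genes 1 was detected, CD14 at 2.23 ± 0.254 CPM, while TYROBP, CSF1R and SPI1 came next at 1.12, 0.873 and 0.759 TPM without reaching detection in every library, P2RY12 had 0 to 8 counts and C1QA 1 or 2 counts per library. Of 10 endothelial genes 2 were detected, TEK at 9.54 ± 1.88 CPM and CLDN5 at 4.38 ± 0.408 CPM, with KDR and TIE1 at 0.957 and 0.601 CPM and the endothelial cadherin CDH5 at 3 to 10 counts. Oligodendrocyte lineage genes were detected in 6 of 12 cases. The myelin gene CNP, which progenitors and astroglia can also express, led at 151 ± 3.49 TPM, OLIG1 and CSPG4 stood at 5.99 ± 0.913 and 4.19 ± 0.719 TPM, and SOX10, MOG and MAG had at most 8 counts in any library. Of the 12, 2 stood above the all-gene median of 23.6 TPM.

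Mesenchymal and mural genes were detected in 9 of 14 cases, in an uneven way. ACTA2 and TAGLN, contractile proteins of smooth muscle that other adherent cells also make, led at 301 ± 32.6 and 176 ± 31.9 TPM, and COL1A1 and PDGFRB followed at 54.4 ± 37.8 and 48.9 ± 2.04 TPM (SD, n = 6). COL1A2, whose chain pairs with that of COL1A1 in fibroblast collagen, stood at 0.265 ± 0.0823 TPM, and POSTN at 0.147 ± 0.0680 TPM. In the neural crest list, with 6 of 14 detected, PRPH, a filament protein of peripheral and some central neurons, reached 310 ± 37.3 TPM, SNAI2, NGFR and TFAP2A stood at 10.9, 6.498 and 5.53 TPM, and SOX10 was near 0. The choroid plexus and ependyma list had 7 of 11 detected, led by FOXJ1, the master factor of motile cilia, at 143 ± 17.8 TPM, CFAP126 at 83.0 ± 12.4 TPM, MSX1 at 52.1 ± 6.27 TPM and PIFO at 32.9 ± 2.98 TPM. TTR, the defining product of the choroid plexus, had at most 1 count per library, so the cilia genes stood without it.

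Pluripotency genes were detected in 5 of 12 cases, none of them the core factor POU5F1 (0.724 ± 0.0690 CPM, SD, n = 6). ZFP42 had 0 counts in all 6 libraries, and TDGF1 at most 6. DNMT3B, a DNA methyltransferase, stood at 42.2 ± 1.58 TPM, and LIN28B and DPPA4 at 5.30 ± 0.255 and 3.65 ± 0.313 TPM. NANOG read 8.57 ± 0.380 TPM, but it has near-identical processed copies such as NANOGP8 (0.574 ± 0.121 CPM), so how its reads were divided is uncertain. Endoderm and liver genes were detected in 2 of 12 cases, FOXA1 (5.56 TPM) and TF (0.558 TPM), with ALB at 0.734 CPM. Muscle and heart genes were detected in 3 of 12 cases, TNNT1 (11.9 TPM), MYH3 (4.50 TPM) and MYH7 (2.16 TPM), with NKX2-5 at 0.390 CPM. Epithelial genes were detected in 4 of 10 cases, among them CDH1 and KRT19 at 6.79 and 3.01 TPM. In this list KRT8 and KRT18, the simple keratins, stood at 24.7 ± 4.74 and 21.6 ± 4.2 TPM without detected EPCAM (0.805 ± 0.0968 CPM).

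Among the transmitter lists the highest genes by TPM were the GABAergic ABAT and GAD1. GAD1, which makes GABA, stood at 239 ± 9.39 CPM (229 to 252; 120 ± 4.23 TPM, SD, n = 6), the vesicular GABA transporter SLC32A1 at 59.3 ± 1.69 TPM and the degrading enzyme ABAT at 230 ± 4.68 TPM. GAD2, the synaptic form of the enzyme, was 10.3-fold below GAD1 per length at 11.6 ± 0.846 TPM. Of the forebrain interneuron factors DLX1, DLX2, DLX5 and DLX6 were detected, at 25.5, 19.9, 11.9 and 2.91 TPM, and LHX6, the factor of interneurons from the medial ganglionic eminence, was not, at 0.0890 ± 0.0382 CPM. The GABAergic list had 9 of 10 detected.

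Glutamatergic genes were detected in 6 of 6 cases, with a list median of 17.1 TPM beside 18.8 TPM for the GABAergic list, and 3 of 6 against 4 of 10 members stood above the all-gene median of 23.6 TPM. Of the vesicular transporters that define glutamate release, SLC17A6 and SLC17A8 stood at 24.6 ± 1.18 and 24.2 ± 1.57 TPM, and SLC17A7, the form of mature cortical neurons, was 24.1-fold below SLC17A6 at 1.02 ± 0.131 TPM. The glutaminase GLS2 stood at 3.19 ± 0.469 TPM and the transporter SLC1A1 at 9.66 ± 0.825 CPM. GAD1 was 4.89-fold above SLC17A6. These 3 contrasts (GAD1 and GAD2, SLC17A6 and SLC17A7, SLC17A6 and GAD1) pointed the same way in 6 of 6 libraries (exact permutation p = 0.03125, adjusted 0.0347). Their sizes depended on the length used: with the longest transcript in place of the exon union, the log2 ratio went from 3.37 to 4.32 for GAD1 over GAD2, from 4.59 to 3.89 for SLC17A6 over SLC17A7 and from -2.29 to -3.02 for SLC17A6 over GAD1, with the same calls.

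The other transmitters were represented in part or hardly at all. For glycine, the glial transporter SLC6A9 stood at 113 ± 6.40 TPM, the neuronal one SLC6A5 at 6.15 ± 0.602 TPM, and the receptor subunits GLRA2, GLRB and GLRA1 at 35.3, 21.03 and 0.536 TPM. For acetylcholine, CHAT and SLC18A3, its synthesis and vesicle loading genes, were detected at 4.96 ± 0.174 and 6.19 ± 0.244 TPM and ACHE at 18.9 ± 0.822 TPM, whereas the choline transporter SLC5A7 and the factor LHX8 had at most 2 counts per library. For dopamine and noradrenaline 2 of 10 genes were detected, NR4A2 at 4.09 ± 0.448 TPM and the cofactor enzyme GCH1 at 3.68 ± 0.199 TPM. TH, the enzyme that starts catecholamine synthesis, stood at 0.230 ± 0.0432 CPM, DDC at 0.925 ± 0.125 CPM, PNMT at 1.14 ± 0.151 CPM, SLC18A2 at 0.151 ± 0.0477 CPM and SLC6A3 at 0.0780 ± 0.00799 CPM, and DBH, SLC6A2 and PITX3 had at most 7 counts in any library. For serotonin FEV, the factor of serotonergic neurons, was well above detection at 37.9 ± 7.51 TPM (12.8 to 24.4 CPM), but TPH2, the neuronal synthesis enzyme, stood at 0.327 ± 0.0987 CPM, SLC6A4 at 0.0776 ± 0.0157 CPM, the peripheral enzyme TPH1 at 2.41 ± 0.167 CPM and the receptor HTR1A at no more than 1 count per library. The histamine enzyme HDC was below detection at 0.686 ± 0.156 CPM. FEV thus stood beside TPH2 and SLC6A4 below detection, and CHAT and SLC18A3 beside SLC5A7 near 0.

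**Figure D3:**
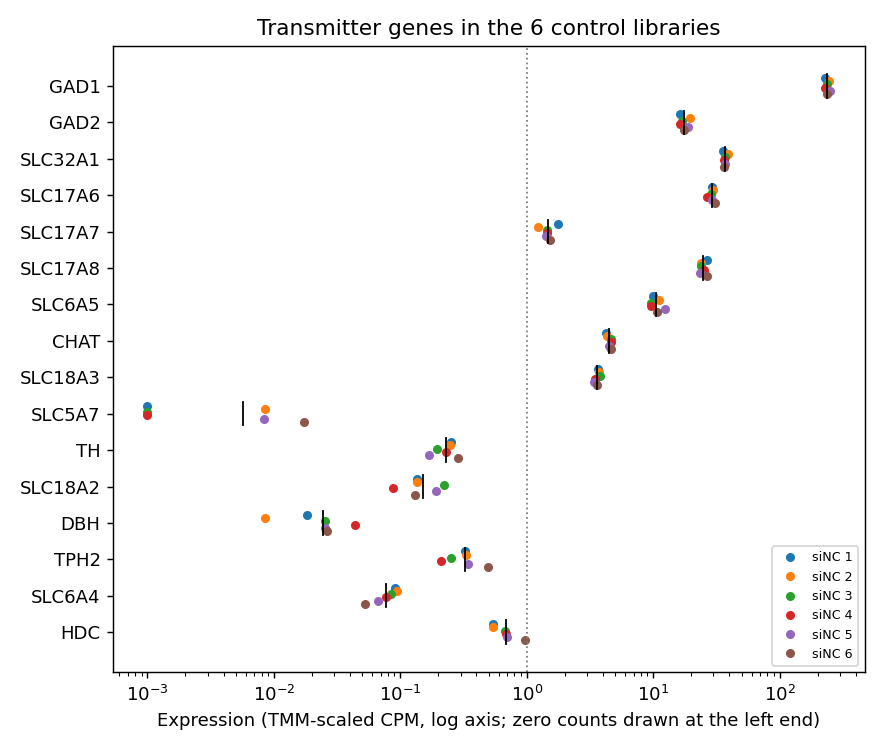
Expression of 16 transmitter genes in TMM-scaled CPM on a log axis; points are the 6 siNC libraries, the vertical line is their mean, the dotted line is 1 CPM and zero counts are drawn at the left end. GABA genes reach 239 CPM (GAD1), glutamate transporters SLC17A6 and SLC17A8 lie near 29 and 24.9 CPM, and TH, SLC18A2, DBH, TPH2 and SLC6A4 lie below 1 CPM; CPM is not divided by length, so libraries are compared within a gene.

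Receptors for the 2 main transmitters differed in how fully they were represented. Ionotropic glutamate receptor subunits were detected in 16 of 18 cases, led by the AMPA subunit GRIA1 at 215 ± 19.6 TPM, the kainate subunit GRIK5 at 69.7 ± 2.52, GRIA2 at 43.8 ± 5.64 and the NMDA subunit GRIN2D at 40.5 ± 2.32 TPM (SD, n = 6). GRIN1, the obligatory NMDA subunit, stood at 7.72 ± 0.693 TPM. GABA-A receptor subunits were detected in 5 of 16 cases. Of the 16, 1 stood above the all-gene median of 23.6 TPM. Lower detected members were GABRA5 at 4.01 ± 0.374, GABRQ at 3.42 ± 0.418 and GABRB2 at 0.599 ± 0.141 TPM, with GABRG3 at 0.564 ± 0.0492 TPM. GABRA4 had 0 or 1 count per library. Of 20 peptide and granin genes 5 were detected: the granins SCG2 (435 ± 10.2 TPM), CHGB (85.7 ± 4.71 TPM) and CHGA (34.6 ± 2.60 TPM), VGF (215 ± 18.5 TPM) and NPY (19.5 ± 2.44 TPM). SST, VIP and CCK had at most 8 counts in any library.

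Factors that mark positions along the neural tube came from several levels at once. In the forebrain list 13 of 18 were detected, with RELN at 61.2 ± 10.5, NKX2-1, the factor of ventral forebrain and hypothalamus, at 59.8 ± 7.28, EMX2 at 41.2 ± 4.25 and LHX2 at 35.0 ± 3.72 TPM (SD, n = 6). In the midbrain and hindbrain list 9 of 16 were detected, with EN1 at 66.3 ± 5.84, LMX1B at 60.0 ± 6.11, IRX3 at 39.2 ± 2.22 and GBX2 at 22 ± 1.77 TPM. Of 29 HOX genes, which pattern hindbrain and spinal cord, 10 were detected. HOXA9 and HOXA10, of the caudal end, were the highest at 87.9 ± 4.54 and 58.8 ± 3.96 TPM, then HOXB2 at 49.2 ± 3.56 and HOXA3 at 26.3 ± 1.06 TPM; 15.9% and 9.93% of the exon bases of HOXA9 and HOXA10 are shared with other genes on their strand. Of the dorsoventral and thalamic factors 9 of 15 were detected. NKX6-1, of the ventral neural tube, reached 211 ± 7.85 TPM, NKX6-2 33.5 ± 1.66 TPM and LHX5 26.1 ± 1.40 TPM. Rostral and caudal factors were thus both detected in all 6 libraries. The detected shares were 72.2% (forebrain), 56.25% (midbrain and hindbrain), 34.5% (HOX) and 60.0% (dorsoventral and thalamic), beside 66.6% of protein-coding symbols. These counts alone therefore do not set a position apart.

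The most abundant transcripts were mitochondrial and cytoskeletal. Of the 20 highest genes 13 were mitochondrial by TPM and 10 by CPM, and 16 genes were in both sets. MT-RNR2, a ribosomal RNA, and MT-CO1, a subunit of cytochrome oxidase, led with 8862 ± 242 and 8683 ± 293 CPM (SD, n = 6), and mitochondrial genes made up 16.2% ± 0.407 of all TPM. The highest nuclear genes by TPM were TMSB10, an actin-binding thymosin, at 6363 ± 362, the actins ACTG1 at 5046 ± 139 and ACTB at 3494 ± 44.5, the tubulin TUBA1A at 4082 ± 192, the elongation factor EEF1A1 at 3670 ± 103, PEA15, a phosphoprotein rich in astroglia, at 3311 ± 78.3, and VIM. MAP1B, a microtubule protein of growing axons, FLNA and the nuclear RNA MALAT1 entered the 20 highest by CPM only, at 1978 ± 193, 1689 ± 84.1 and 1505 ± 117 CPM. Of 11 nuclear long noncoding RNAs 10 were detected, with MIAT at 274 ± 17.4, LINC00461 at 246 ± 9.13 and MIR124-2HG, the host of a neuronal microRNA, at 66.3 ± 7.44 TPM.

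Among lists of cell states, the immediate early genes were detected in 13 of 13 cases, with JUN at 249.2 ± 4.39, EGR1 at 96.1 ± 5.31, IER2 at 84.5 and JUNB at 54.6 TPM, while NPAS4, which neuronal activity induces, stood at 2.76 ± 0.279 TPM. Interferon response genes were detected in 14 of 15 cases, led by IFI6 at 501 ± 93.6, IFITM3 at 380 ± 12.6 and ISG15 at 168 ± 20.8 TPM. All cultures had received an siRNA, and its part in these levels was not tested. Hypoxia and glycolysis genes were detected in 9 of 12 cases, with the glycolytic enzymes ENO1 at 435 ± 13.0 and PGK1 at 119.8 TPM, BNIP3 at 50.3 and LDHA at 38.4 TPM, while CA9 stood at 0.0613 CPM. Of 10 short or non-polyadenylated RNAs 3 were detected, RN7SL1 at 52.5 ± 4.83 CPM and the histone genes H2BC5 and H1-2 at 14.4 ± 0.598 and 7.70 ± 0.6247 CPM, with RMRP at 0.762 ± 0.144 CPM. RN7SL1 and RMRP lie wholly within exons of other annotated genes and have near-identical copies, so their counts are uncertain.

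Control libraries differed little from each other for most genes. Over 12655 genes with a mean of 5 CPM or more, the coefficient of variation (CV, SD as a percent of the mean) had a median of 4.50% and reached 9.62% at the 90th percentile, where counting alone gives a median of 1.51%. The biological coefficient of variation, edgeR's common estimate of the spread beyond counting, was 6.76%. With 1 library left out it ran from 6.47% (without siNC 5) to 7.11% (without siNC 1), and it was 6.52% without siNC 3. The steadiest genes with at least 20 CPM were VPS35L (CV 0.404%), CSNK2A1 (0.501%), EIF2AK1 (0.534%) and NPEPPS (0.550%), all within counting error. OSBPL2, ABR, RBMX, LRPAP1 and ARF3 followed, up to a CV of 0.662% for ARF3. At the other end 61 genes had a CV over 20%.

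The inflammatory list had 5 of 15 genes detected, among them LIF at 13.9 ± 1.08 TPM. The largest spread beyond counting among the 12655 genes was that of CXCL8, a chemokine that attracts neutrophils, with a CV of 103%. It had 1.13, 11.96, 9.99, 0.725, 0.503 and 17.0 CPM in siNC 1 to 6, so that siNC 2, 3 and 6 were high and the other 3 low with nothing between. The related chemokine CXCL1 had 0.372, 2.27, 2.29, 0.165, 0.185 and 4.34 CPM and the cytokine IL1B 0.0363, 6.08, 5.24, 0.0769, 0.101 and 13.2 CPM in the same order. CXCL1 and IL1B had means under 5 CPM and were chosen after their values were seen. NFKBIA, an inhibitor that NF-kB itself induces, stayed between 17.3 and 18.4 CPM, and CCL2 between 14.8 and 25.9 CPM. The same 3 libraries were thus high in CXCL8, CXCL1 and IL1B but not in NFKBIA. The rank of CXCL8 rested on siNC 6, without which its mean was 4.86 CPM, under the minimum of 5, and COL1A1 ranked first. A minimum of 20 CPM leaves CXCL8 out in advance, since its mean was 6.88 CPM. With no minimum CXCL8 was not among the 5 most variable, of which CCL3 ranked 4 and CXCL1 ranked 5. No other gene among the 20 most variable had its 3 highest values in siNC 2, 3 and 6.

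Promoters are shown for CXCL8, CXCL1 and IL1B, which were high in the same libraries, and for NFKBIA, which was not. Each holds the 250 bases up to the transcription start from RefSeq (GRCh38.p14), 5′ to 3′ on the gene's strand. Capitals mark each match to GGNNTTTCC, a form of the NF-kB site, on either strand. CXCL8 lies on the plus strand at chr4:73740319-73740568, CXCL1 on the plus strand at chr4:73869143-73869392, IL1B on the minus strand at chr2:112836780-112837029 and NFKBIA on the minus strand at chr14:35404750-35404999.
CXCL8: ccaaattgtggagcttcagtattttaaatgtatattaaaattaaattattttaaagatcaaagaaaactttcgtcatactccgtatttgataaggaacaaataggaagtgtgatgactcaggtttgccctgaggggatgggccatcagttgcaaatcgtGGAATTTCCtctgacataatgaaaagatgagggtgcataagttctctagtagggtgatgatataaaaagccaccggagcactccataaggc
CXCL1: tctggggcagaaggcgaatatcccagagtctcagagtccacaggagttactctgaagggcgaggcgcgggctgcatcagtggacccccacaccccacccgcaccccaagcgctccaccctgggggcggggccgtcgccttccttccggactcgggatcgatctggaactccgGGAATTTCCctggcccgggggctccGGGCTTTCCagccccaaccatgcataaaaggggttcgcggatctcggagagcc
IL1B: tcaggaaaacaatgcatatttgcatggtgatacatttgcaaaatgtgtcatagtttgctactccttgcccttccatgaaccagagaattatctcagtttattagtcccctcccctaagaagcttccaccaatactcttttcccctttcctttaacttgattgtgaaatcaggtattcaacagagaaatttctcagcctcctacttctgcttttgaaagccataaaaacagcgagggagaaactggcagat
NFKBIA: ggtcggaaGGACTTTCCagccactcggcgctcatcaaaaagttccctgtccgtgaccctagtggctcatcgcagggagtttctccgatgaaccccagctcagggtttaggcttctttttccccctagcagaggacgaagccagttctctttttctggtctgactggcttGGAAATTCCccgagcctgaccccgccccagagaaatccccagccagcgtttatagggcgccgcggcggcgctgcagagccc
The match in CXCL8 begins 91 bases before the start and those in CXCL1 78 and 53 bases before it. NFKBIA, steady across the libraries, has 2 matches, 242 and 81 bases before its start, and the window of IL1B has none. Of 27305 promoters of this length 5.48% hold a match, and 8 of the 13 inflammatory list genes with a RefSeq promoter do. The list was not drawn at random and holds NFKBIA itself, so these shares test nothing about the libraries. Any part of NF-kB in the levels was not tested. A match is a description of the letters in this window.

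Other variable genes followed other libraries. COL1A1, the main chain of fibrillar collagen, had 157, 70.2, 97.5, 297, 72.7 and 75.9 CPM in siNC 1 to 6 (CV 69.2%), with siNC 4 highest and siNC 1 next. FN1, fibronectin, had 383, 198, 192, 251, 181 and 222 CPM, and THBS1, a matrix glycoprotein, 148, 76.2, 83.8, 116, 74.6 and 121 CPM. In both, siNC 1, 4 and 6 held the 3 highest values. So they did in 9 of the 20 most variable genes, where 9.71% of all 12655 genes have that pattern: FN1, THBS1, the integrin ITGA11, the matrix genes MXRA5 and COL12A1, the muscle-type genes ANKRD1 and ALPK2, and HLA-DRA and CD74 of antigen presentation. The lowest value lay in siNC 5 for 9 of the 20 and in siNC 3 for 5. Of all 12655 genes, 2391 were lowest in siNC 5 and 3011 in siNC 3. COL1A1, CPA4 and FNDC1 had their 3 highest values in siNC 1, 3 and 4, as 5.57% of all genes do. CNTNAP5 and AC008957.3 had theirs in siNC 2, 5 and 6, as 6.6% do. Each of the rest had a pattern that no other of the 20 had. KRT17, a keratin, ranged from 3.34 to 14.3 CPM with siNC 1 highest, the neuronal adhesion gene CNTNAP5 from 7.33 to 18.5 CPM with siNC 5 highest, and ZNF460, SLC6A11, CPA4, FNDC1, ACTG2 and the unclassified transcript AC008957.3 by 1.95- to 2.76-fold from lowest to highest. VIM-AS1 was highest in siNC 3 at 13.1 CPM against 4.15 to 7.77 in the others, but 32.2% of its exon bases overlap a gene on the other strand, and the strand setting of the counting is not given in the sources used here. The last gene inside this set, CD74, had a CV beyond counting of 27.0%.

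**Figure D4:**
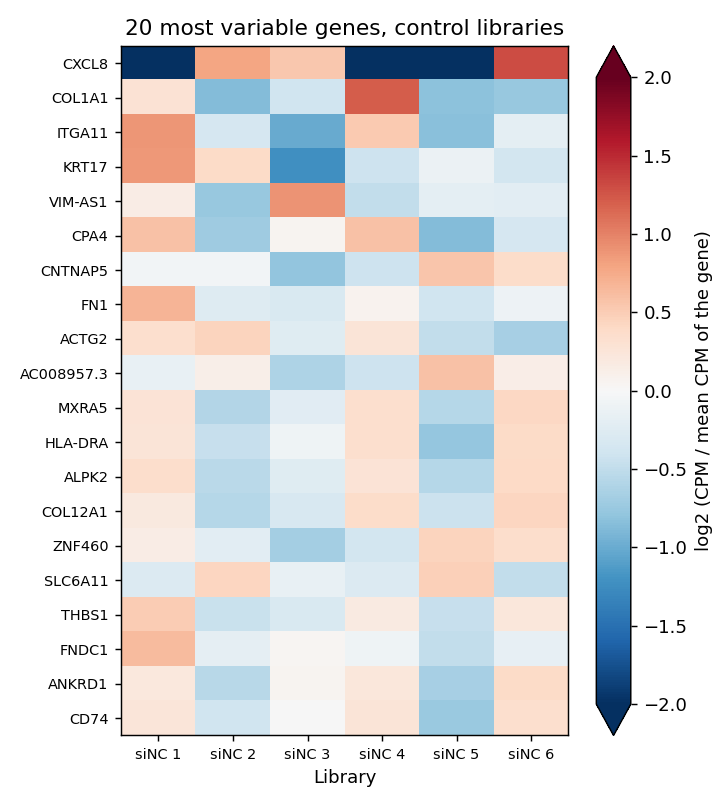
The 20 most variable genes (rows, by falling spread beyond counting error) in the 6 siNC libraries (columns), coloured by log2 of CPM over the gene's mean CPM, from -2 (blue) to 2 (red), with values beyond that in the end colours. CXCL8 is high in siNC 2, 3 and 6 with 11.96, 9.99 and 17.0 CPM, whereas FN1, MXRA5, COL12A1 and THBS1 are high in siNC 1, 4 and 6.

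The libraries also differed in gene groups that spread less per gene. Contractile and SRF target genes, whose products form and respond to actin fibres, were detected in 12 of 12 cases, led by CCN2 at 308 ± 60.2 TPM, and had a median CV of 13.1% over 12 genes, against 4.50% over all genes. Their median log2 deviation from the gene means was 0.05, -0.07, -0.09, 0.14, -0.27 and 0.14 in siNC 1 to 6, and in 7 of 12 (ACTA2, TAGLN, MYL9, TPM1, CCN1, CCN2 and VCL) the 3 highest values lay in siNC 1, 4 and 6. That pattern holds for 9.71% of all genes. TAGLN, for example, had 184, 150, 158, 183, 119 and 201 CPM. By its medians the neuron list went nearly the other way, at -0.08, 0.07, 0.03, -0.05, 0.07 and -0.03. Its median CV was 5.95% over 19 genes. In 9 of its 19 genes (STMN2, MAPT, ELAVL3, INA, NSG1, NSG2, SNAP25, NEFL and CRMP1) the 3 highest values lay in siNC 2, 3 and 5, a pattern that 9.90% of all genes have. In 5 others (DCX, MAP2, NCAM1, SYT1 and DPYSL3) those values lay in siNC 2, 5 and 6, as in 6.6% of all genes. MAP2 was lowest in siNC 3, at 902 CPM, and GAP43 in siNC 5, at 420 CPM. The neuron genes thus did not all move together. MAPT, the tau gene, had 307, 381, 332, 324, 380 and 322 CPM. CPM are shares of a library, so a rise in some genes lowers others, and the part of this, or of cell numbers, in these differences was not tested.

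**Figure D5:**
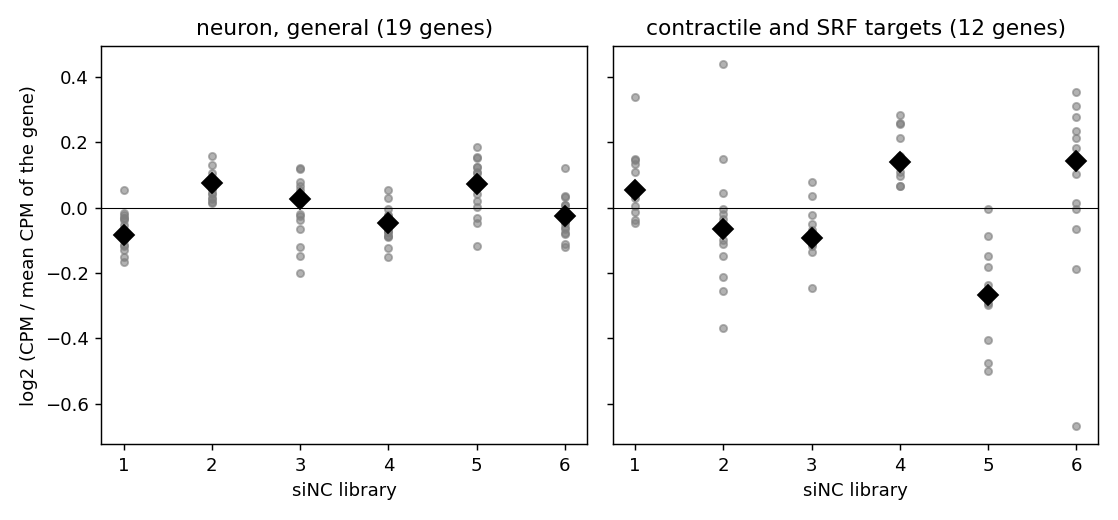
Log2 of CPM over the gene's mean CPM in each siNC library for 19 neuron genes (left) and 12 contractile and SRF target genes (right); grey points are genes and black diamonds their median in that library. Contractile genes are lowest in siNC 5 (median -0.27) and highest in siNC 4 and 6 (0.14 each), while neuron genes are lowest in siNC 1 (-0.08).

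Progenitor list medians were small, so their signs carry little weight. They were 0.0051, -0.0285, -0.0329, 0.0023, 0.0342 and 0.0501 on the same log2 scale in siNC 1 to 6. The sign was opposite to that of the neuron medians in 5 of 6 libraries, which include the very small values of siNC 1 and 4. Of the 20 progenitor genes 4 (NES, SOX9, CDH2 and TNC) had their 3 highest values in siNC 1, 4 and 6, beside 9.71% of all genes. In 3 (PAX6, HES5 and SOX3) they lay in siNC 2, 3 and 5, beside 9.90%. The rest were spread over other patterns, such as siNC 2, 4 and 5 for SOX2 and siNC 1, 3 and 6 for VIM. The marker genes DCX, SOX2 and MKI67, taken singly, gave positive correlations. DCX and SOX2 had Pearson's r = 0.89 over 6 libraries on log2 CPM (exact permutation p = 0.0153, two-sided, adjusted over 3 relations 0.0458) and Spearman's rho = 0.89 (exact permutation p = 0.0333, adjusted 0.1). Without the 2 libraries whose DCX lay farthest from the median r was 0.77. The call by Pearson's r was lost with DESeq2 size factors (r = 0.88, adjusted p = 0.0625, exact permutation) and with plain library totals (r = 0.80, adjusted p = 0.158, exact permutation), as it was whenever 1 library was left out (r from 0.80 to 0.95). DCX and MKI67 gave r = 0.75 (exact permutation p = 0.0667, adjusted 0.1) and rho = 0.77 (p = 0.103, adjusted 0.103), so no relation was called. Over the 4 libraries left without the same 2, r was 0.22. Leaving out those 2 narrows the range of DCX, so the lower r cannot show what the relation rests on. With 1 library left out r ran from 0.55 to 0.88. SOX2 and MKI67 gave r = 0.60 (exact permutation p = 0.215, adjusted 0.215) and rho = 0.77 (p = 0.103, adjusted 0.103), with r = 0.70 after leaving out 2.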

How the data were processed

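The authors deposited whole-number counts per gene symbol, 1 column per library; per the submitters' processing notes, bcl2fastq 2.17, STAR 2.7.6a, featureCounts 2.0.1 and GRCh38 were used. Annotation and strand setting are not given in the sources used here. Per the labels' protocols, total RNA was taken in Qiazol and the library kit was NEBNext Ultra II Directional. Only the 6 siNC columns were used.

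CPM were scaled by TMM factors (edgeR 4.0.16, R 4.3.3) from these libraries alone. TPM used exon-union lengths from GENCODE v29 (GRCh38), found for 94.9% of symbols. Dispersion was estimated with an intercept-only design over 23114 genes kept by filterByExpr; the code was tested on simulated data. Gene pairs were compared by log2 ratios of TPM + 0.01 with exact sign-flip tests and Benjamini-Hochberg adjustment over 10 pairs (Python 3.11.15, scipy 1.17.1). The depth makes counting error small except for genes near 0.

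Named genes are the 6 markers, the 20 highest by CPM and by TPM, the 20 most variable (mean of 5 CPM or more) and 10 least variable (20 CPM or more), all transmitter genes, the 4 highest of each other list and the paired genes. Some genes that this rule names are not reported here. Others, such as list members near 0, were chosen after their values were seen. Members and lists were chosen with earlier results of these data known. Alternatives were DESeq2 1.42.0 size factors, plain totals, other detection limits and filters, longest transcripts, and leaving out each library.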

Additional observations from a re-analysis of the deposited data

Results flagged for a closer look

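Of 231 quantities examined (the genes named with a mean of at least 0.1 CPM, library totals, mitochondrial share and genes at 1 CPM), 5 (2.16%) had 1 library far from the other 5; chance gives about 1 in 20, and over all genes with at least 5 CPM the share was 4.39%. The library siNC 4 had the fewest counts, 90755953, where the others had 109973707 to 120023356. In siNC 1 the fibronectin gene FN1 was highest at 383 CPM against 181 to 251 in the others, FNDC1, a gene with fibronectin domains, was highest at 15.6 CPM against 7.21 to 10.3, and the hindbrain boundary factor GBX2 was lowest at 10.3 CPM against 12.3 to 13.3. In siNC 6 the histamine enzyme HDC was highest at 0.969 CPM against 0.537 to 0.696.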

How the results depend on the processing

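No paired analysis was possible because only the control group was analysed and no groups were compared. With the longest transcript as length, mean TPM was 218 for DCX, 783 for SOX2, 51.3 for MKI67, 466 for NTRK2 and 689 for STMN2. At 5 CPM in all libraries, detected members fell to 3 (oligodendrocyte), 0 (microglia), 1 (endothelium), 3 (pluripotent), 0 (endoderm), 1 (cholinergic), 0 (dopaminergic), 1 (serotonergic), 1 (GABA-A receptors), 5 (midbrain and hindbrain) and 3 (inflammatory). At 0.5 CPM they were 2 (microglia), 4 (endoderm), 4 (dopaminergic), 1 (histaminergic) and 8 (inflammatory). With no filter beyond filterByExpr the median CV was 7.65% and 1 of the 20 most variable genes remained among the 20, and with a mean of 20 CPM or more 4 did, since genes near 0 enter or low genes leave. The correlation of DCX and SOX2 was 0.88 with DESeq2 size factors and 0.80 with plain totals, past the threshold in neither; the cause was not tested. Leaving out 1 library leaves 5, where the sign-flip test cannot pass, so those fits say nothing about stability of the calls; the log2 ratios ran from -1.97 to -1.94 (DCX over SOX2), 3.61 to 3.71 (STMN2 over MKI67), 4.54 to 4.65 (SLC17A6 over SLC17A7), -2.31 to -2.27 (SLC17A6 over GAD1), 3.36 to 3.39 (GAD1 over GAD2), 2.55 to 2.7 (GRIN2B over GRIN2A), 0.94 to 1.03 (SCN3A over SCN1A), 5.25 to 5.32 (SLC1A3 over SLC1A2) and 3.72 to 3.82 (VIM over GFAP), and r of DCX and SOX2 from 0.80 to 0.95. No value reversed in any alternative run. Depth limits only genes with few counts.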
